A study of Mus musculus with 2 samples.

Results

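The genes described here encode the membrane fusion machinery of granules and other vesicles: 57 genes of 23988 in the expression table, taken by their symbols alone as every Vamp, Stx, Stxbp, Syt and Sytl gene with a numbered name, Snap23, Snap25, Snap29, Snap47 and Unc13a to Unc13d. They were measured by RNA-seq in 2 libraries of 1 group, untransformed myeloid progenitors of C57BL/6 mice. Bone marrow was depleted of cells carrying lineage markers and grown in a culture condition labelled Myeloid with IL3, SCF (the ligand of Kit) and IL6, without any other treatment, up to day 7. The labels give no age or sex, do not say whether animals were pooled, and leave unsaid whether replicate 1 and replicate 2 are separate cultures, so the spread between them may be technical.

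Membrane fusion is driven by SNARE proteins, which pair across a vesicle and its target membrane: a VAMP on the vesicle with a syntaxin and a protein related to Snap25 on the target. Munc18 proteins (Stxbp2 and its relatives) hold and guide syntaxins, Munc13 proteins (Unc13 genes) prime the complex, synaptotagmins sense calcium in neurons and endocrine cells, and synaptotagmin-like proteins tie granules to the small GTPase Rab27. Neutrophils, mast cells, basophils and cytotoxic lymphocytes release their granules with this machinery, and inherited loss of UNC13D, STX11 or STXBP2 causes familial haemophagocytic lymphohistiocytosis.

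Values are RPKM, reads divided by gene length and library size, which allows genes to be compared within a library as far as the lengths used are right. The steps between low values correspond to 29941063 effective reads for replicate 1 and 28793666 for replicate 2, and gave whole read numbers for all 50 members above 0. These read numbers are the smallest that suit the values, so the true ones may be whole multiples of them, and the 95% intervals quoted are exact binomial intervals that cover counting error only. Transcripts of several kinds of granules were high. All 5 markers of neutrophil primary granules and all 5 of secondary granules were at 1 RPKM or more in both libraries. Also at this level were all 6 listed for basophils or mast cells and all 6 of monocytes and macrophages found in the table. All 4 of progenitors were too (Kit at 21.2 and 26.2 RPKM, Cd34 at 14.5 and 19.5). From the eosinophil list 3 of 4 found in the table reached this level, and from a separate mast cell list 2 of 6 did. None of 5 T and NK cell, 4 B cell, 5 erythroid, 4 stromal and 5 neuroendocrine markers did. In bulk RNA, fewer cells of a type and less RNA per cell cannot be told apart.

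A 250-base stretch before the annotated start shows how differently the members are built. RefSeq promoter windows of build GRCm38.p6 were found by symbol for 43 of the 57 genes, and the first listed window was used where a gene had several. The 5 shown are those of the highest VAMP gene and its neighbour, of the highest member, of a synaptotagmin gene near 0 and of Unc13a, which differed most between the libraries among members with a mean of at least 1 RPKM, each written 5′ to 3′ on the strand of the gene, with every CG dinucleotide in capitals. Vamp8 is on the minus strand at chr6:72390668-72390917, Vamp5 on the minus strand at chr6:72380469-72380718, Stxbp5 on the minus strand at chr10:9901041-9901290, Syt9 on the plus strand at chr7:107370540-107370789 and Unc13a on the minus strand at chr8:71671758-71672007.
Vamp8: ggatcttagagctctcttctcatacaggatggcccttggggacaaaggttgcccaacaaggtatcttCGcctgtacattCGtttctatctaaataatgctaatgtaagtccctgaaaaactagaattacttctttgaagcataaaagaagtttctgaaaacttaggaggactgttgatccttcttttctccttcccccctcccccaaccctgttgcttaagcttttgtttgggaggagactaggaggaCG
Vamp5: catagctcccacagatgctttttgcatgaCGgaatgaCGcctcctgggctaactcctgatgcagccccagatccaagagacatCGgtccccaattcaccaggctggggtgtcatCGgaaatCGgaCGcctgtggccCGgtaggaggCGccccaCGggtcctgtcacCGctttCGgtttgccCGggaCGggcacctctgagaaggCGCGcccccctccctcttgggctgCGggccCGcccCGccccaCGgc
Stxbp5: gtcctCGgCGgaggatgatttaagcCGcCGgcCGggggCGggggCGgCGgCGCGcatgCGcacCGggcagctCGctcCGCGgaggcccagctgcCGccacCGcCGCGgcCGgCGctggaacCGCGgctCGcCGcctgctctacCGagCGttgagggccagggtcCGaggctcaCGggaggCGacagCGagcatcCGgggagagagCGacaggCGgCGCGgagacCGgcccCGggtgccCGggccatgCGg
Syt9: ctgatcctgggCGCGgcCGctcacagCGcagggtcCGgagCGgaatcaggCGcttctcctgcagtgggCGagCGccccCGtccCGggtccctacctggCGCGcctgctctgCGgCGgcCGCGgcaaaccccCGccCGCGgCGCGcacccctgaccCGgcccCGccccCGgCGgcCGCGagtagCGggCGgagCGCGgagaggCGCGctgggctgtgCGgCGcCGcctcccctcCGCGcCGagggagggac
Unc13a: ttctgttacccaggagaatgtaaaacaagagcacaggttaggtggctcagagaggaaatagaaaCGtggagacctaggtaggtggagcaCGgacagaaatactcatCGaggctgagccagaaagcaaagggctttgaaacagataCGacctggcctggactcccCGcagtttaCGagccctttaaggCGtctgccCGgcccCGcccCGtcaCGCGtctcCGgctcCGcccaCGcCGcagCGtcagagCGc

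Vamp8 and Vamp5 are next to each other in the RefSeq order of protein-coding genes. The Vamp8 window held 3 CG dinucleotides and was 43.6% G or C, whereas that of Vamp5 held 19 and was 66%. Stxbp5 and Syt9 had 40 each, the most of the 43 members with a window, and Unc13a had 18. The median was 17 CG dinucleotides over 25 members at 1 RPKM or more in both libraries and 10.5 over the 18 other members with a window, against 16 and 4 over all genes of the table divided in the same way (7935 and 8840 genes). CG number and level did not go together simply among the members. Vamp8, Stx7 with 4 and Stx3 with 6 were among the most abundant, while Syt9 with 40, Syt10 with 32 and Syt16 with 30 were listed at or near 0. The letters CCCGCCC, the core of a GC box, occurred on either strand in 21 of the 43 windows (48.8%), against 31.6% of 16775 windows of the table's genes. TATAAA occurred in 1 window, that of Stx3 (2.33% against 11.9%), and CCAAT in 12 (27.9% against 36%). Among members at 1 RPKM or more in both libraries, CCCGCCC occurred in 48% of windows, against 44.1% for all genes at this level. Among the 18 other members it occurred in 50%, against 20.3% for all other genes. TATAAA occurred in 4% against 5.80% at this level, and in 0% against 17.5% for the others. For both motifs the larger gap from all genes thus lay among the other members. GAGGAAGT and CCGGAAGT, forms of the ETS factor motif that share the letters GGAAGT, occurred in none of the 43 windows and in 2.27% and 3.86% of all windows. A match of letters is a description and not a binding site.

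**Figure D1:**
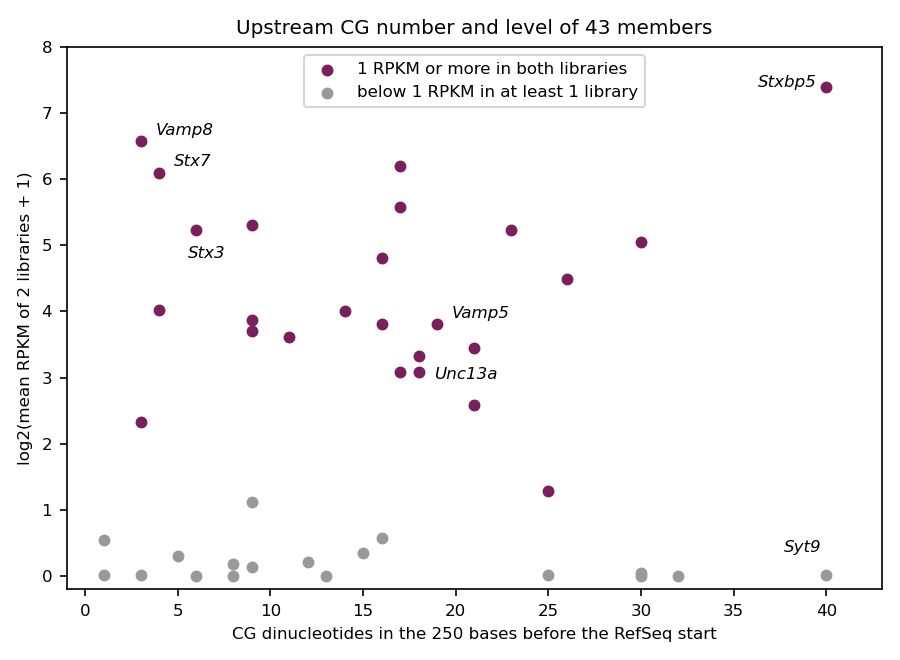
Number of CG dinucleotides in the 250 bases before the RefSeq start (x axis) against log2 of the mean RPKM of both libraries plus 1 (y axis) for the 43 members with a window. Purple points are members at 1 RPKM or more in both libraries and grey points the others. Highly expressed members lie at both ends of the x axis, from Vamp8 with 3 to Stxbp5 with 40.

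In all, 29 of the 57 genes (50.9%) reached 1 RPKM in both libraries, here called detected, against 43.5% of all genes. Another 7 were listed at 0 in both, against 30.1% of all genes, and 4 were listed at 0 in 1 library. The set divided by family and not evenly. Of the 26 SNARE genes 21 were detected, of the 17 synaptotagmin genes 0 were, and of the 5 synaptotagmin-like genes 2 were. The count of 0 rests on the limit of 1 RPKM in both libraries, since Syt11 reached 1.43 RPKM in replicate 2. The difference between the medians of SNARE and synaptotagmin genes was 3.80 in replicate 1 and 3.70 in replicate 2 on the log2(RPKM + 1) scale, a mean of 3.75 ± 0.07 (SD, n = 2). With 2 libraries the smallest p of an exact permutation test by sign flips is 0.5, so no test was run on this or any other difference. A difference was called larger than the spread when its sign was shared by both libraries and its mean exceeded 2 SD, and this one was. Its size depends on the pseudocount, as it was 6.61 with a pseudocount of 0.1.

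**Figure D2:**
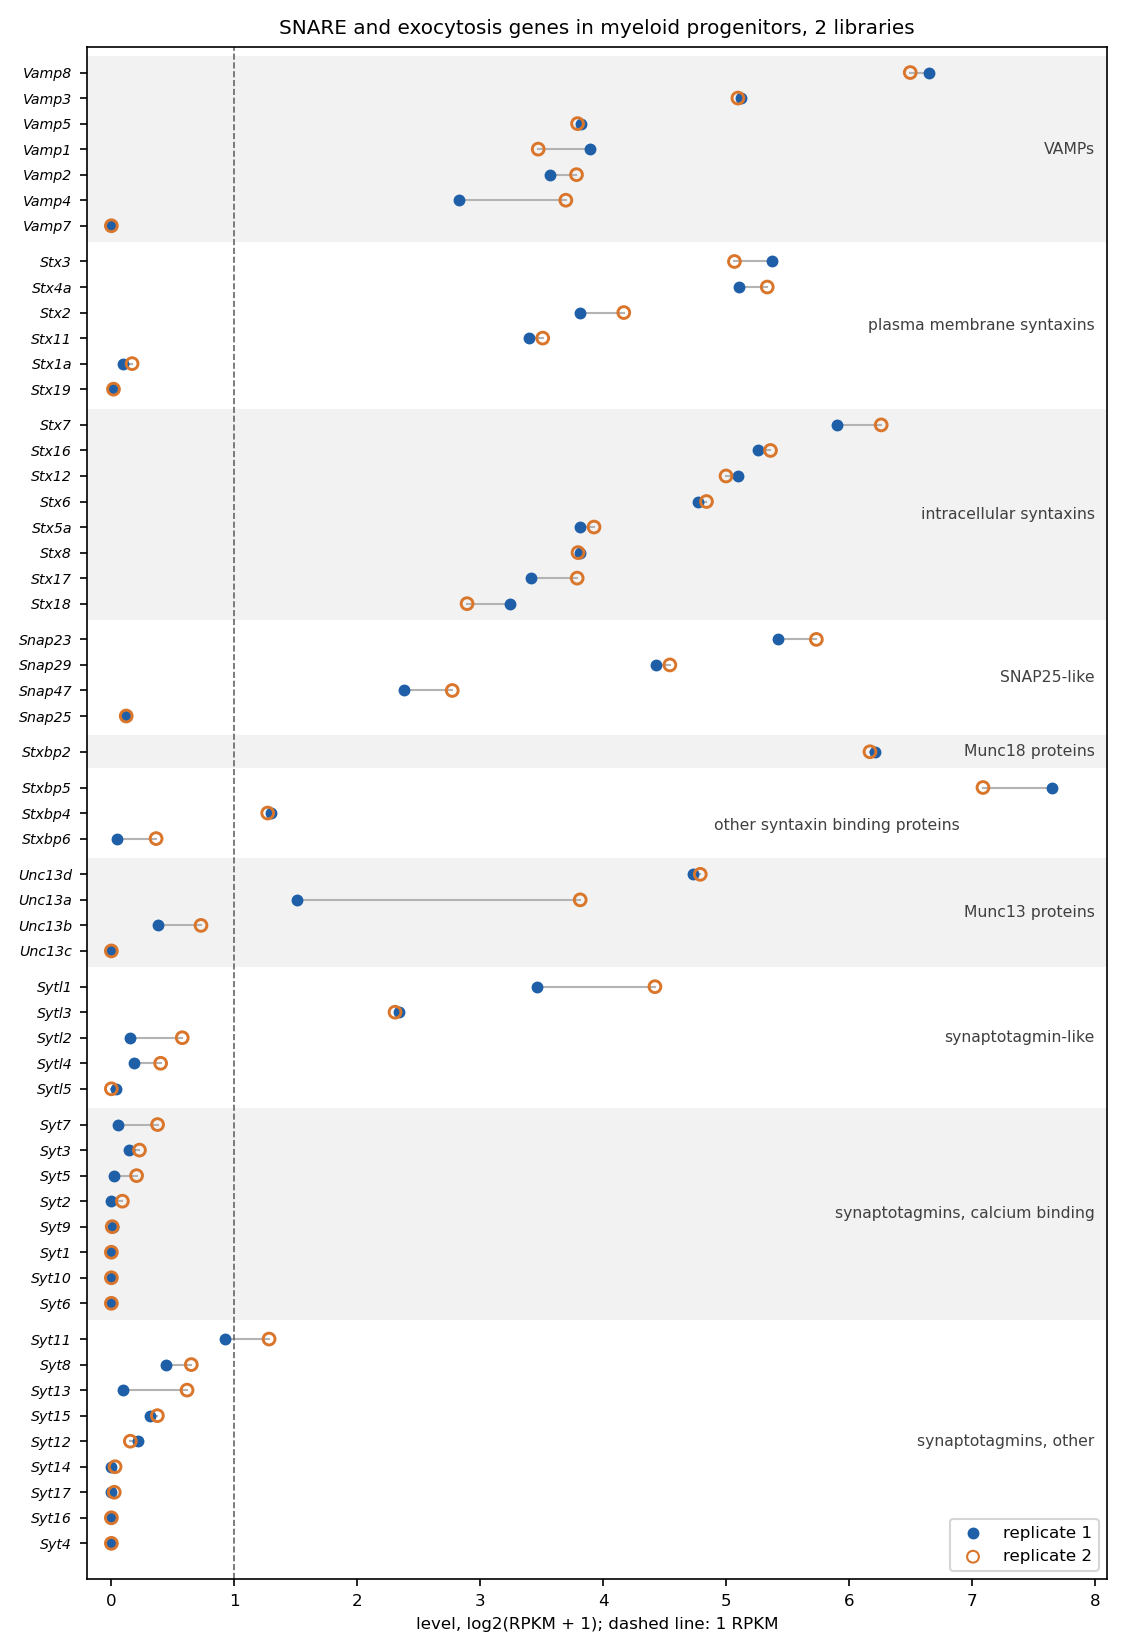
Level of 55 of the genes as log2(RPKM + 1) (x axis), filled blue for replicate 1 and open orange for replicate 2, with genes grouped by role on the y axis and a grey line joining the libraries. The dashed line is 1 RPKM. VAMP and syntaxin genes lie mostly right of it, synaptotagmin genes left of it except Syt11 in replicate 2, and Unc13a has the longest line.

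Among the VAMP genes, the vesicle SNAREs, Vamp8 was the most abundant. Vamp8, whose protein takes part in granule release of mast cells and platelets and in endosome fusion, had 99.3 RPKM in replicate 1 and 89.5 in replicate 2, or 56% and 52.5% of the summed RPKM of the 7 VAMP genes. Vamp3 (cellubrevin, of recycling endosomes) followed at 33.9 and 33.2 RPKM. Vamp1 and Vamp2, the synaptobrevins of neurons, were both present, Vamp1 at 13.9 and 10.1 RPKM and Vamp2 at 10.9 and 12.8. Vamp5 (myobrevin) stood at 13.1 and 12.9 RPKM. The values of Vamp1 lay on both sides of those of Vamp2 and Vamp5, so Vamp1 has no order against them beyond its spread. Vamp4, a SNARE of the trans-Golgi network, had 6.10 RPKM in replicate 1 and 12.0 in replicate 2, from at least 395 and 746 reads. Vamp8 exceeded Vamp2 by 2.90 ± 0.26 and Vamp1 by 2.89 ± 0.19 on the log2(RPKM + 1) scale (SD, n = 2), both larger than the spread. Vamp7, a lysosomal SNARE found in most cells, was listed at 0 in both libraries. An exact 0 in this table need not mean that a transcript is absent, since the widely used cholesterol enzyme gene Hmgcs1 was listed at 0 too. No absence of Vamp7 can therefore be read from its 0. Vamp7 also has no transcript under that symbol in GENCODE vM21.

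Of the 7 syntaxin genes of the plasma membrane, 4 were detected and 3, among them the neuronal Stx1a, were not. Stx3, a syntaxin of regulated secretion in mast cells and epithelia, stood at 40.4 and 32.6 RPKM, and Stx4a, the broadly expressed syntaxin 4, at 33.4 and 39.4. Their ranges over the libraries overlapped and replicate 1 and replicate 2 ranked them differently. Stx2 stood at 13.03 and 17.0 RPKM. Stx11, which serves granule release of cytotoxic lymphocytes, stood at 9.52 and 10.4 RPKM. Stx1a stood at 0.0663 and 0.124 RPKM, from at least 5 and 9 reads. Stx19, an epithelial syntaxin, stood at 0.0116 and 0.012 RPKM, at least 1 read in each library. Stx3 and Stx4a each exceeded Stx1a by 5.09 on the log2(RPKM + 1) scale, with SDs of 0.27 and 0.11 (n = 2), and Stx11 exceeded it by 3.32 ± 0.03 (SD, n = 2). With a pseudocount of 0.1 the difference between Stx11 and Stx1a was 5.70.

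All 8 syntaxin genes of internal membranes were detected. Stx7, the late endosome syntaxin, led at 59.0 and 75.8 RPKM, above every other syntaxin gene in each library. Its partner in late endosome fusion, Stx8, stood at 13.03 and 12.9 RPKM. The syntaxins of the trans-Golgi network, Stx16 and Stx6, stood at 37.3 and 40.1 and at 26.3 and 27.7 RPKM, and Stx12 of recycling endosomes at 33.2 and 31.0. Stx5a of the Golgi stood at 13.1 and 14.2 RPKM. Stx17, used in the fusion of autophagosomes with lysosomes, stood at 9.67 and 12.8 RPKM and Stx18 of the endoplasmic reticulum at 8.46 and 6.43. In GENCODE vM21, 21.8% of the exonic bases of Stx18 also lie in exons of other genes, the largest share among the 56 members found there, and most of these lie in exons of Nsg1 on the other strand, a gene at 0.0887 and 0.0461 RPKM. The median of the internal syntaxins exceeded that of the plasma membrane syntaxins by 0.89 ± 0.02 on the log2(RPKM + 1) scale (SD, n = 2), and by 1.86 with means in place of medians.

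Among the genes related to Snap25, Snap23, the form of most non-neuronal cells, was high and Snap25, that of neurons, was low. Snap23 stood at 41.9 and 52.3 RPKM and made up 62.7% and 64.9% of the summed RPKM of the 4 related genes. Snap25 stood at 0.0841 and 0.0874 RPKM, from at least 4 reads in each library. The difference of 5.46 ± 0.22 on the log2(RPKM + 1) scale (SD, n = 2) was the largest of the 10 pairs of related members compared. Snap29, which acts on internal membranes, stood at 20.6 and 22.3 RPKM, and Snap47 at 4.20 and 5.84.

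Of the Munc18 genes, the form known from blood cells was among the highest members. Stxbp2, the Munc18 gene of granule release in blood cells, stood at 73.2 and 71.1 RPKM. Its relative Stxbp3a, a name outside the rule that chose the members, stood at 10.5 and 10.2 RPKM. The highest of all 57 genes was Stxbp5, which encodes tomosyn, a protein that binds syntaxins and limits SNARE assembly in neurons and other secretory cells. It had 201 RPKM in replicate 1 and 135 in replicate 2, from at least 6050 and 3924 reads, above 97.8% of all genes by its mean. The smallest length that gives whole reads for Stxbp5 was 1007 bp, whereas its longest GENCODE transcript has 8825, so the length behind this value is not settled and its rank may rest on it. Such doubt is not particular to Stxbp5. Of 50 members with both lengths, the smallest length was under 25% of the longest transcript for 7, among them Unc13a (1281 against 10255 bp) and Vamp1 (918 against 5709 bp). It exceeded the longest transcript for 14, among them Unc13d (6391 against 4046 bp), Stx4a (2936 against 1456 bp) and Syt8 (5306 against 1503 bp). The Stxbp5 relative Stxbp5l, outside the rule, stood at 0.0278 and 0.0173 RPKM. Stxbp4 stood at 1.46 and 1.41 RPKM, and Stxbp6 (amisyn) at 0.0294 and 0.287.

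Among the Munc13 genes, Unc13d was steady and Unc13a was not. Unc13d, the form that primes granules in blood cells, had 25.6 RPKM in replicate 1 and 26.7 in replicate 2. Unc13a, the form of central synapses, stood at 1.85 and 13.1 RPKM, from at least 71 and 482 reads. Unc13a was thus far lower than Unc13d in replicate 1 and at about the level of the VAMP genes Vamp2 and Vamp5 in replicate 2. Its share of the summed RPKM of the 4 Munc13 genes was 6.68% and 32.3%. The difference between Unc13d and Unc13a was 3.22 in replicate 1 and 0.98 in replicate 2 on the log2(RPKM + 1) scale, a mean of 2.10 ± 1.59 (SD, n = 2), within the spread. Unc13b stood at 0.303 and 0.658 RPKM, and Unc13c was listed at 0 in both, which as for Vamp7 does not show absence. RefSeq gives Unc13a also as an older name of Unc13b, which has its own row here. In GENCODE vM21, 495 of the 10312 exonic bases of Unc13a (4.80%) also lie in exons of Colgalt1 on the other strand. Colgalt1 is listed under an older symbol at 98.5 and 145 RPKM. The smallest length that gives whole reads for Unc13a was 1281 bp, so the overlap may be a larger share of the bases counted. The strand setting of the counting is not given, so reads of the overlap cannot be assigned to either gene.

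**Figure D3:**
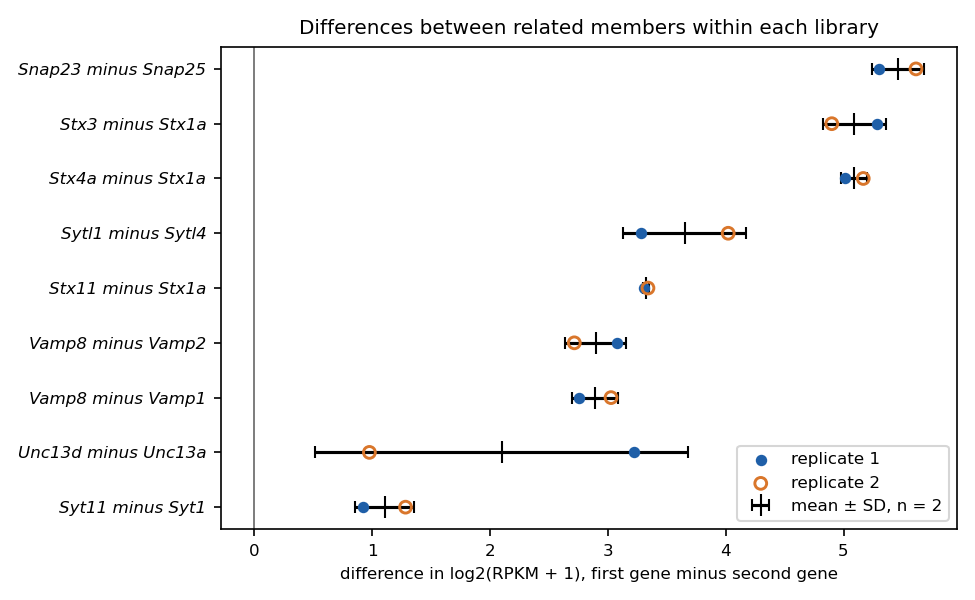
Difference in log2(RPKM + 1) between the first and second gene of each of 9 pairs (x axis), in replicate 1 (filled blue) and replicate 2 (open orange), with the mean ± SD over n = 2 libraries in black. In 8 pairs the first gene was higher by more than 2 SD, and the exception is Unc13d minus Unc13a, whose libraries lie at 3.22 and 0.98; Syt1 is listed at 0, so the size of its pair rests on the pseudocount.

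Synaptotagmin genes were all low. Syt11, which lacks calcium binding, was the highest of the 17 at 0.901 and 1.43 RPKM, from at least 130 and 199 reads. Syt8 stood at 0.359 and 0.569 RPKM, and Syt15 at 0.240 and 0.296. Syt7, a calcium sensor of lysosome and granule release, stood at 0.0382 and 0.298 RPKM, from at least 2 and 15 reads. Among the other calcium-binding forms, Syt3 stood at 0.103 and 0.172 RPKM, Syt5 at 0.0134 and 0.153, and Syt9 at 0.00959 and 0.00499. Syt2, a calcium sensor known from mast cells and neurons, was listed at 0 in replicate 1 and at 0.0642 RPKM, at least 1 read, in replicate 2. Syt1, Syt6 and Syt10, and the non-binding Syt4 and Syt16, were listed at 0 in both libraries. As for Vamp7, such a 0 does not show absence. Syt14 and Syt17 were listed at 0 in replicate 1 and at 0.0212 and 0.0166 RPKM in replicate 2. A value of 0 in replicate 1 allows up to 3 reads, or 0.185 RPKM for Syt2, 0.0306 for Syt14 and 0.0479 for Syt17. These limits use the smallest lengths that give whole reads, and longer true lengths would lower them. For Syt2 this length was 541 bp, whereas its longest GENCODE transcript has 6879. Syt12 stood at 0.163 and 0.113 RPKM and Syt13 at 0.0658 and 0.532. The 9 genes without calcium binding exceeded the 8 with it by 0.10 ± 0.01 (SD, n = 2) in the difference of medians on the log2(RPKM + 1) scale. This small value was larger than the spread and was 0.68 with a pseudocount of 0.1, but the larger of the medians was 0.0658 and 0.113 RPKM.

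The synaptotagmin-like genes were led by Sytl1, an effector of Rab27 in leukocytes. Sytl1 had 10.05 RPKM in replicate 1 and 20.4 in replicate 2, from at least 484 and 947 reads. Sytl3 stood at 4.06 and 3.95 RPKM. Sytl2 and Sytl4 (granuphilin, of endocrine granules) were below the limit, at 0.114 and 0.491 and at 0.136 and 0.32 RPKM. Sytl5 stood at 0.0272 RPKM, at least 1 read, in replicate 1 and was listed at 0 in replicate 2. That 0 allows up to 0.0848 RPKM at the smallest length that gives whole reads. Sytl1 exceeded Sytl4 by 3.65 ± 0.52 on the log2(RPKM + 1) scale (SD, n = 2). It was 5.52 with a pseudocount of 0.1.

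Most other genes of the pathway were detected, and several of those not detected are known from neurons. Of 54 other pathway genes in 7 lists, 38 were detected, against 43.5% of all genes. Among the 38 were all 12 further SNAREs, all 9 exocyst subunits (the complex that tethers vesicles) and all 5 further genes of the Sec1/Munc18 family. The highest further SNAREs were Use1 at 34.2 and 43.1 RPKM, Vti1b at 30.2 and 28.0 and Gosr2 at 29.4 and 28.5. Napa, an adaptor for taking SNAREs apart after fusion, stood at 57.6 and 50.8 RPKM, Napg at 10.9 and 11.5, and Nsf, the ATPase that does it, at 8.65 and 6.78. Napb, the brain form of the adaptor, stood at 0.705 and 0.202 RPKM. Exoc1, Exoc5 and Exoc2 led the exocyst at 34.0 and 29.7, 22.2 and 18.8, and 14.9 and 16.2 RPKM. Vps33a and Vps33b, of lysosome and granule formation, stood at 66.6 and 50.3 and at 31.1 and 25.3 RPKM, and Scfd1 at 15.7 and 11.9.

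The Rab GTPases of secretory granules were abundant. Rab27a, which docks granules and is lost in Griscelli syndrome, stood at 161 and 157 RPKM, Rab27b at 50.2 and 67.2, and Rab3d, a Rab of mast cell and exocrine granules, at 39.8 and 49.2. Rab37 and Rab3a were detected as well, and Rab3b and Rab3c were not. None of the 4 complexins, which clamp SNARE complexes at synapses, was detected, and Cplx2 was the highest at 0.457 and 0.222 RPKM. In the list of other docking and priming genes 4 of 13 were detected. Myo5a, a myosin that carries granules, stood at 40.5 and 37.7 RPKM, Baiap3, a relative of the Munc13 genes, at 34.2 and 41.5, Lyst, the gene of Chediak-Higashi syndrome, at 27.0 and 33.5, and Doc2a at 2.88 and 2.15. Rims2 and Rims4 of the synaptic active zone, Cadps and Doc2b were listed at 0 in both libraries.

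**Figure D4:**
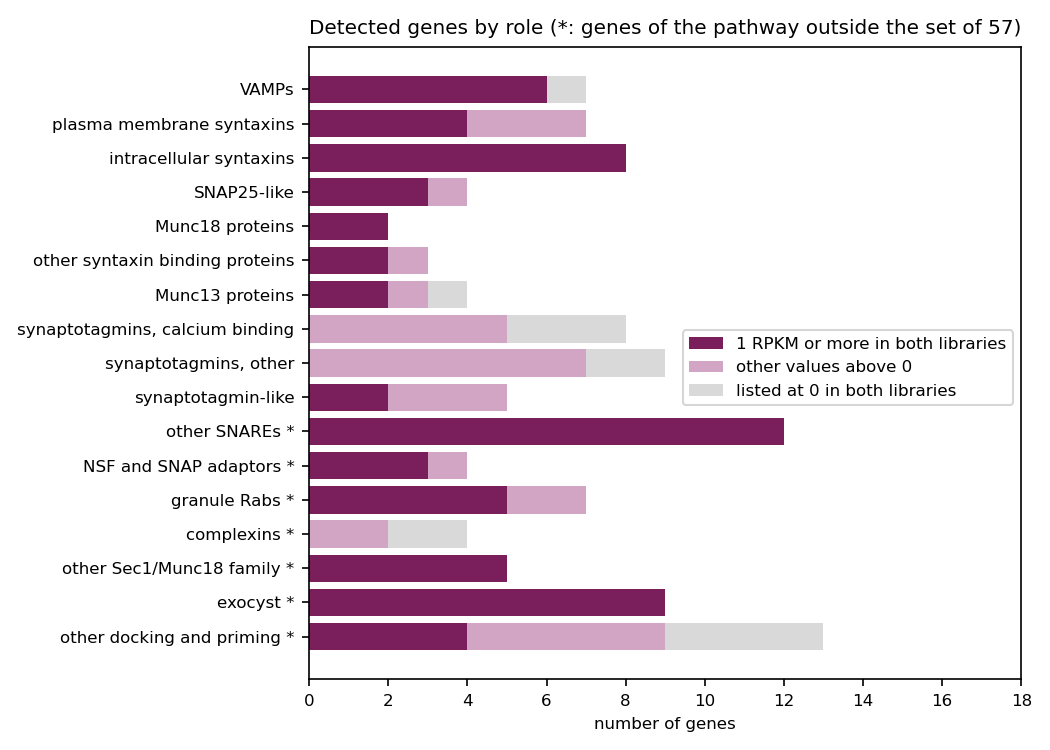
Number of genes (x axis) in each list of the 57 members and, marked with an asterisk, of further pathway genes, divided into detected genes, other values above 0 and genes listed at 0 in both libraries. Bars of intracellular syntaxins, Munc18 genes, further SNAREs, Sec1/Munc18 genes and exocyst subunits are filled whole, and those of synaptotagmins and complexins hold no detected gene.

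Between the libraries, 29 of the 30 members with a mean of at least 1 RPKM differed by less than 2-fold with a pseudocount of 1. Over these 30 members, the median log2 ratio (replicate 2 to replicate 1, pseudocount 1) was 0.11, with quartiles of -0.03 and 0.35. Over all 10896 such genes the median was -0.05, with quartiles of -0.27 and 0.23. Replicate 2 was higher for 18 of the 30 members (60%), against 44.1% of all such genes. Only Unc13a of the 30 was at least 2-fold higher in replicate 2, against 5.3% of all such genes, and none was 2-fold higher in replicate 1, against 0.734%. With 1 library on each side these differences have no replicate check. Of the 54 further pathway genes, 38 had a mean of at least 1 RPKM, and none of these 38 was past 2-fold in either direction.

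Counting error alone was small beside many of these differences. The 95% counting interval of the ratio excluded 1 for 22 of the 30 members, against 71.9% of such genes, so members were near the background in this respect. The ratio for Unc13a was 7.06 (5.49 to 9.19), for Sytl1 2.03 (1.82 to 2.27) and for Vamp4 1.96 (1.74 to 2.22). Stx7, Snap23, Stx2 and Stx17 had ratios of 1.28, 1.25, 1.30 and 1.33. In the other direction, Stxbp5 had a ratio of 0.67 (0.65 to 0.70), Vamp1 0.73 (0.62 to 0.85), Stx18 0.76 (0.66 to 0.88) and Stx3 0.81 (0.73 to 0.89). Unc13d, Stxbp2, Vamp3, Vamp5 and Stx8 lay between 0.97 and 1.04. With pseudocounts of 0.1 instead of 1, Sytl1 joined Unc13a past 2-fold.

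**Figure D5:**
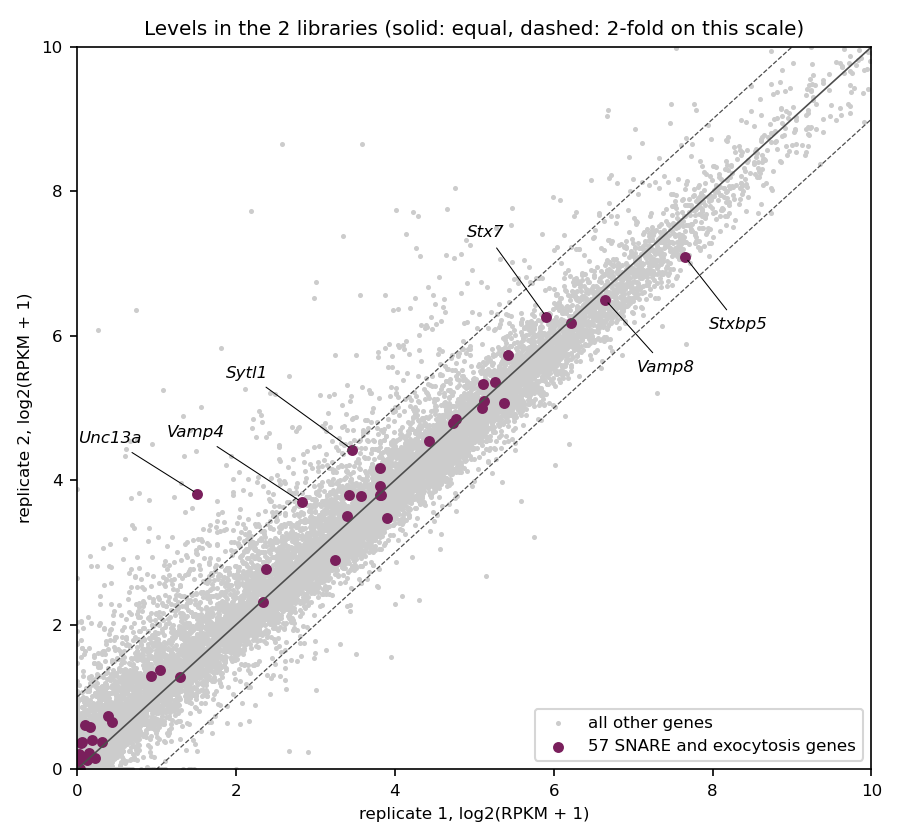
Level in replicate 1 (x axis) against replicate 2 (y axis) as log2(RPKM + 1), for the 57 members (purple) and all other genes (grey), with axes ending at 10, below which all members lie. The solid line marks equal values and the dashed lines a 2-fold difference on this scale, with its pseudocount of 1. Members follow the solid line, and Unc13a alone lies outside the dashed lines. Low members with larger ratios in RPKM lie inside them, such as Stxbp6 at 0.0294 and 0.287.

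Of the 20 members above 0 with a mean under 1 RPKM, 17 were higher in replicate 2, against 69.6% of all genes at such levels. The counting interval lay above 1 for 8 of them, against 16.6% of such genes: Stxbp6, Unc13b, Sytl2, Sytl4, Syt5, Syt7, Syt8 and Syt13. The ratio was 9.75 (4.70 to 23.4) for Stxbp6, 8.09 (4.03 to 18.4) for Syt13 and 4.32 (2.33 to 8.63) for Sytl2. For Syt7 it was 7.80 (1.81 to 70.3), so its size is not settled at this depth. Marker genes of several cell types were higher in replicate 2 as well. The 4 of 6 mast cell markers with a mean of 1 RPKM or more were all past 2-fold, the list summed to 9.41 RPKM in replicate 1 and to 762 in replicate 2, and Mrgprb2 was listed at 0 in replicate 1. All 6 monocyte and macrophage markers were higher, 4 of them past 2-fold, with sums of 1158 and 3271 RPKM. All 5 markers of secondary granules were higher, 2 of them past 2-fold, with sums of 9093 and 12200 RPKM. All 6 markers listed for basophils or mast cells were higher, 2 of them past 2-fold, with sums of 1393 and 2740 RPKM. All 5 megakaryocyte markers were detected and higher, 1 of them past 2-fold, with sums of 46.8 and 80.0 RPKM. Markers of primary granules were all lower, with sums of 5390 and 4088 RPKM. The eosinophil list also summed to less in replicate 2, at 99.0 and 71.5 RPKM. Among its 3 markers with a mean of at least 1 RPKM, 1 was higher in replicate 2. The 8 neuron markers had sums of 5.14 and 7.69 RPKM, with 3 of 8 detected and Rbfox3 and Nefl listed at 0 in both libraries. The part of these cell types in the levels of Unc13a, Sytl1 and the low members was not tested.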

How the data were processed

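RNA-seq was read in 2 libraries of 1 group. The authors deposited RPKM values, 1 column per library. Trimmomatic 0.32, TopHat2, HTSeq, edgeR and build mm9 are named in the submitters' processing notes. For settings, annotation, strand and library size the record is: not given in the sources used here. Of 24015 rows, 27 with names in the form of dates were left out. Members were taken by the symbol rule alone, and this rule and the gene lists were set with earlier results of these data known. Symbols were used as deposited, and all 57 are current in RefSeq. Whole reads were sought at lengths of 150 to 15000 bp for each pair of values, with the size ratio 0.962 shared by 474 genes and a scale from 47 genes with 1 GENCODE vM21 transcript. They were found for 99.8% of 16777 genes above 0, within 0.00012 reads for the members. The recovery of reads was tested on simulated data. A limit of 3 reads applies to a value of 0 (effective sizes in the report). Named genes were all members, the 3 highest genes of each pathway list and any gene that a small count refers to. Values of 2 single members, 1 pair of members and 1 marker are not reported here. Coordinates are given only for the printed promoter windows, in build GRCm38.p6. Other gene coordinates are not given because mm9 is not the build of the references. Python 3.11.15, numpy 2.4.6, pandas 2.3.3, scipy 1.17.1 and matplotlib 3.10.9 were used. Alternatives were other pseudocounts, limits, filters, scaling, means, and each library left out.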

Additional observations from a re-analysis of the deposited data

How the results depend on the processing

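No result changed direction under the alternatives run. For internal minus plasma membrane syntaxins, leaving out members at 0 could change nothing, as neither list holds one. Undetected plasma membrane syntaxins were kept in every alternative, so a difference between detected syntaxins only was not tested. Detected members numbered 29, with 30 at 0.5 RPKM, 24 at 5 RPKM, and 29 to 30 with 1 library left out. A pseudocount of 0.1 gave 0.94 for internal minus plasma membrane syntaxins, 6.60 for VAMPs minus synaptotagmins, 0.68 for synaptotagmins without minus with calcium binding, 6.61 for SNAREs minus synaptotagmins, and 2 members past 2-fold in replicate 2. Means in place of medians gave 1.86, 3.55, 0.21 and 3.38 for the 4 differences. Leaving out members at 0 gave 0.18 for the synaptotagmin classes and 3.66 for SNAREs minus synaptotagmins. With 1 library left out the 4 differences ran from 0.87 to 0.90, 3.69 to 3.81, 0.09 to 0.11 and 3.70 to 3.80. The cause of these shifts was not tested. Of 10 pairs, 9 lay beyond the spread with either pseudocount, though differences from genes near 0 were larger with 0.1 (7.98 for Snap23 minus Snap25, 7.56 for Stx3 and for Stx4a minus Stx1a), and this count could not be made with 1 library. Scaling replicate 2 by 1.02 to equal medians put 19 of 30 members higher in it. No paired analysis was possible because the labels give 1 group. Below 3 reads a value cannot be told from 0.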
